A study of Homo sapiens with 2 samples.

Results

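The genes described here are 10 that encode the enzymes of branched-chain amino acid catabolism and their regulators: BCAT1, BCAT2, BCKDHA, BCKDHB, DBT, BCKDK, PPM1K, IVD, MCCC2 and ACADSB. They were taken by symbol from the deposited expression table, where all 10 were found among 19607 genes. The list was drawn up with earlier results of the same 2 libraries in view, including that of BCAT1, so the differences below describe these libraries and are not independent evidence. RNA was taken from CWR22rv1, a line of human prostate cancer cells grown in serum-containing medium. One library (CWR22rv1/Akt1/2 DKO) was labelled Akt1/2 knockout and the other (control) wild type. In the study the knockout was made with Cas9 and guides to both genes, followed by puromycin selection and the isolation of monoclonal cells, and the labels do not say which clone was sequenced. With 1 library per condition, an effect of Akt1/2 loss and a difference between a clone and the control cells cannot be told apart.

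Leucine, isoleucine and valine share the first steps of their breakdown. A branched-chain aminotransferase, cytosolic BCAT1 or mitochondrial BCAT2, moves the amino group to 2-oxoglutarate and so makes glutamate. The branched-chain 2-oxoacid dehydrogenase complex of the mitochondrion then makes the committed, irreversible step, the kinase BCKDK inactivates it by phosphorylation and the phosphatase PPM1K reactivates it. After that the 3 pathways part, and their end products enter the citric acid cycle or ketone body metabolism. BCAT2 is the form of most tissues, while BCAT1 is prominent in brain and is expressed in several tumour types.

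The depth was 9970820 estimated reads for control and 10718650 for Akt1/2 DKO. Fold changes are ratios of Akt1/2 DKO to control after scaling by TMM, an edgeR method that sets the ratio of library sizes from genes that change little, and they were computed over the whole table. Each has a 95% exact interval that covers counting error only, because there is no replicate to show the spread between cultures. AKT1 had 2645 reads in control and 591 in Akt1/2 DKO, and AKT2 had 2362 and 667, so both targeted transcripts were lower in the library labelled as the knockout. Luminal prostate genes were present in both libraries, with 2511 and 3289 reads of FOXA1, 6408 and 12815 of KRT8, 2433 and 5306 of KRT18, and 2363 and 865 of HOXB13. Of the 5 stromal genes, COL1A1 had 55 and 106 reads, COL3A1 74 and 9 and LUM 5 and 35, the other 2 had at most 3, and the list summed to 138 and 153, while the 4 leukocyte and 3 endothelial genes were each at or under 3 reads in both libraries. In RNA from a culture, fewer cells of a kind and less RNA per cell cannot be told apart.

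BCAT1 was the member that stood apart, and the sequences that bear on it come first. BCAT1 (ENSG00000060982) lies on the minus strand of chromosome 12 from 24810022 to 24949459 in GRCh38 (GENCODE release 29), which lists 10 transcripts of it with several starts, from 521 to 9674 bases long. The study designed PCR primers for BCAT1. They are shown because they read only part of the gene:
BCAT1 forward primer: ccaggccttgcagaaattgt
BCAT1 reverse primer: tcaccgagcactctgacatt
Both primers matched 1 of the 10 transcripts without mismatch, the longest one at 9674 bases, and no other gene. The amplicon of 189 bases (chr12:24810705-24810893) lies in exon 11 of 11, in the 3′ untranslated region, 7117 bases past the end of the coding sequence. The other 9 transcripts do not contain either primer site.

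RefSeq gives promoter windows (250 bases before to 50 after a transcript start, GRCh38.p14) for 9 of the 10 members, 13 windows in all, 5 of them for BCAT1. BCAT2 is without a window in that table. Both strands were searched for an E-box (CACGTG, the core site of MYC and related factors), a forkhead site (GTAAACA) and a cyclic AMP response element (TGACGTCA). The E-box was found in 2 member windows, 1 of BCAT1 and the one of MCCC2, and 7.26% of all 35116 windows hold it. The forkhead site, held by 3.42% of all windows, and the cyclic AMP response element, held by 1.85%, were in 0 member windows. A window each of BCAT1 and MCCC2, the members that differed most, in opposite directions, is printed with the E-box in capitals. For MCCC2 it is its only window (chr5:71587090-71587389, plus strand). For BCAT1 it is the one of 5 that holds the E-box (chr12:24949052-24949351, minus strand), and which start was used was not tested:
BCAT1 promoter: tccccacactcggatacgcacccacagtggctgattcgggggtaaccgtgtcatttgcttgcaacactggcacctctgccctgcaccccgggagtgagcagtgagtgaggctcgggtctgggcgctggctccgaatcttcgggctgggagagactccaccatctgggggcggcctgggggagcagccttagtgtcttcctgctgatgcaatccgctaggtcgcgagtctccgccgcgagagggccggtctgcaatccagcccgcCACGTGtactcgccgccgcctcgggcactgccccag
MCCC2 promoter: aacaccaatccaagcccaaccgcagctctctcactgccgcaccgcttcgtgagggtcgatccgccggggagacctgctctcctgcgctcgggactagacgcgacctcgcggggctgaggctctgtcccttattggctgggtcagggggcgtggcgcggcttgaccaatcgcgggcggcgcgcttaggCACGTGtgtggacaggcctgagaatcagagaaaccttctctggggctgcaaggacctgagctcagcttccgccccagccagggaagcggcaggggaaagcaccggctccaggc
The E-box begins 14 bases after the transcript start at 24949101 in BCAT1 and 63 bases before the start at 71587340 in MCCC2. A match of letters is a description and does not show that a factor binds there.

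Akt1/2 DKO had far more BCAT1 than control, somewhat less MCCC2, and levels of the other 8 members within 1.5-fold of control. The largest differences among those 8 were BCKDHA, 1.33-fold lower, and IVD, 1.23-fold lower. A gene was counted as different when it differed by at least 1.5-fold, the size of change the study used. Among the 10 members that held for 2, BCAT1 on the higher side and MCCC2 on the lower, and among all 13318 genes with at least 10 reads in both libraries together 30.9% did, 15.9% higher and 15.0% lower. All 10 members also had at least 100 reads in both libraries together, and among the 10956 such genes the share was 23.2%. BCAT1 reached both of these minimums only through its reads in the Akt1/2 DKO library. The median log2 fold change of the members was -0.19, against 0.01 over all genes tested. Apart from BCAT1, 7 of the other 9 members were below 0 on the log2 scale and 2 above, between -0.83 and 0.21. Counting error was small for most of these genes, and the interval excluded no change for 2 members above (BCAT1, ACADSB) and 6 below. Among all genes tested 59.2% had such an interval, 29.8% above and 29.4% below, so at this depth that alone does not set a gene apart.

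**Figure D1:**
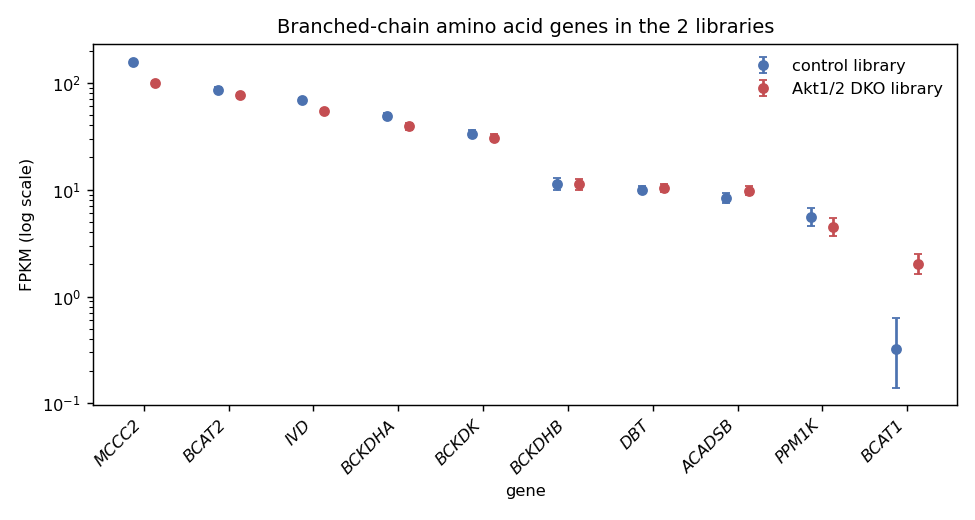
Level of each of the 10 members as FPKM (log axis) in the control and Akt1/2 DKO libraries, 1 point per library, with bars for the 95% Poisson interval of the reads. The order of the genes was the same in both libraries, and BCAT1 was the lowest in each, at 0.32 and 2.02 FPKM.

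The aminotransferases, which open the pathway, differed from each other. BCAT1, the cytosolic enzyme, had 8 reads in control and 94 in Akt1/2 DKO. It was low in control and plainly detected in Akt1/2 DKO. The difference was 10.6-fold in normalised reads (95% interval 5.16 to 25.3), a log2 fold change of 3.41 that at least 1.49% of all genes tested reached or passed. That share is a minimum, because genes with fewer than 3 control reads entered it with lower bounds. It describes a gene that was listed with its value known. In the FPKM of the authors, which correct for transcript length, BCAT1 went from 0.32 to 2.02. That is a difference of 6.31-fold, so the scale moves its size but not its direction.
BCAT2 (ENSG00000105552, chromosome 19 from 48795062 to 48811029), the mitochondrial enzyme, had 1317 reads in control and 1254 in Akt1/2 DKO, a log2 fold change of -0.22 (95% interval -0.33 to -0.11). Per length it remained the main aminotransferase transcript, at 86.2 FPKM in control and 76.2 in Akt1/2 DKO. BCAT1 made up 0.37% of the summed FPKM of the pair in control and 2.58% in Akt1/2 DKO, while the sum itself was 86.6 and 78.2. The level of BCAT2 per length was thus 269.5 times that of BCAT1 in control and 37.7 times in Akt1/2 DKO. The ratio of BCAT1 to BCAT2 reads, which does not depend on how the libraries are scaled, was 12.3-fold higher in Akt1/2 DKO (95% exact interval 5.98 to 29.5). This was 1 of 15 ratios computed.

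The length of transcript that reads and FPKM imply also differed for BCAT1. A gene's reads divided by its FPKM and by the library total give that length, which moves when the authors' software assigns reads to longer or shorter transcripts. This length restates the gap between reads and FPKM and is no separate result. For BCAT1 it was 2.51 kilobases in control and 4.34 in Akt1/2 DKO, a log2 difference of 0.79. Over 10937 genes with at least 100 reads and an FPKM above 0 in both libraries (19 genes lacked one) the central 95% lay between -0.32 and 0.39, and 0.54% had a difference at least as far in the same direction. The 8 control reads carry little information on which transcript they came from. Among the other members PPM1K had the next largest difference (1.78 and 2.21 kilobases, log2 difference 0.31), and BCAT2, at 1.53 and 1.54, the smallest.

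**Figure D2:**
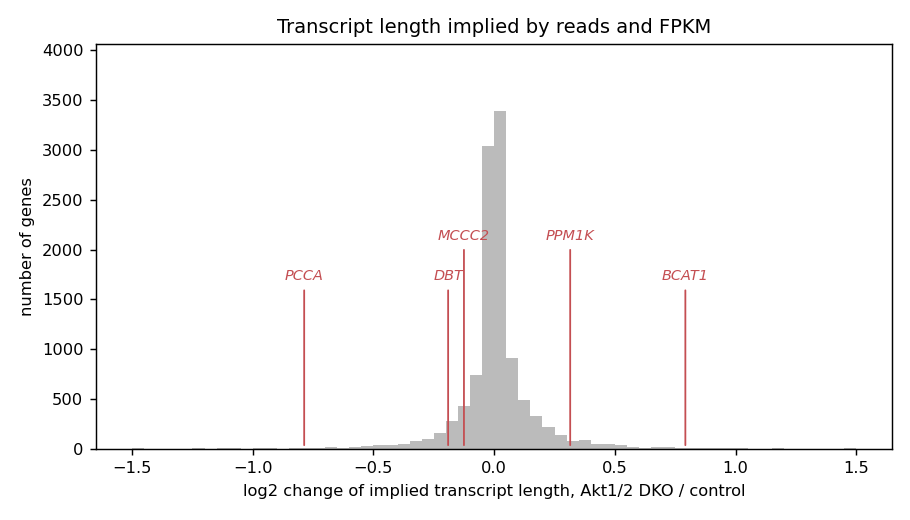
Log2 change, Akt1/2 DKO over control, of the transcript length implied by reads and FPKM (x axis) for 10937 genes with at least 100 reads (bars, number of genes, values beyond 1.5 or -1.5 gathered in the end bars), with 5 genes marked. BCAT1 at 0.79 and PCCA at -0.79 lie outside the central 95% of genes, and DBT, MCCC2 and PPM1K lie inside it.

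The genes of the dehydrogenase complex all differed by less than 1.5-fold. BCKDHA (ENSG00000248098, chromosome 19 from 41397460 to 41425005), the alpha subunit of the decarboxylase E1, had 932 reads in control and 776 in Akt1/2 DKO, 1.33-fold lower (95% interval 1.21 to 1.47). It overlaps the read-through gene AC011462.1 on the same strand over 27542 bases and EXOSC5 on the other strand over 20 bases, and how the authors treated shared reads is not given in the sources used here. BCKDHB (ENSG00000083123, chromosome 6 from 80106647 to 80346270), the beta subunit of E1, was near level at 242 and 274 reads (log2 fold change 0.03, 95% interval -0.22 to 0.29). The 2 subunits of 1 enzyme therefore did not move alike in reads, since the ratio of BCKDHA to BCKDHB was 1.36-fold lower in Akt1/2 DKO (95% exact interval 1.11 to 1.67). Per length BCKDHA stood 4.33 times above BCKDHB in control and 3.50 times in Akt1/2 DKO.
DBT (ENSG00000137992, chromosome 1 from 100186919 to 100249834), the transacylase core E2, had 627 and 610 reads, a log2 fold change of -0.19 (95% interval -0.35 to -0.03). Its sign depends on the scale, since its FPKM was 10.01 and 10.3, a log2 difference of 0.05. DLD, the dehydrogenase E3 that this complex shares with the pyruvate and 2-oxoglutarate complexes, had 1880 and 1788 reads (log2 fold change -0.22, 95% interval -0.32 to -0.13). Of 7 subunit genes of those other complexes (PDHA1, PDHB, DLAT, PDHX, OGDH, OGDHL and DLST), 1 differed by at least 1.5-fold, PDHB, which was 1.57-fold lower, and their median log2 fold change was -0.03.

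The kinase and phosphatase that set the activity of the complex showed no clear shift against each other. BCKDK (ENSG00000103507, chromosome 16 from 31106107 to 31112791), the kinase, had 682 reads in control and 665 in Akt1/2 DKO, a log2 fold change of -0.19 (95% interval -0.34 to -0.03). PPM1K (ENSG00000163644, chromosome 4 from 88257620 to 88284769), the phosphatase, had 99 and 107 reads, with a log2 fold change of -0.04 (95% interval -0.44 to 0.37). Both genes were close to level between the libraries. Per length BCKDK was 6.00 times as abundant as PPM1K in control and 6.76 times in Akt1/2 DKO, while the same ratio in reads was multiplied by 0.902 (95% exact interval 0.665 to 1.22). The reads and FPKM thus gave opposite signs, and a change of this ratio was not detectable at this depth. The ratio of BCKDK to BCKDHA was multiplied by 1.17 (1.01 to 1.35). That of BCKDK to DBT was multiplied by 1.002 (0.856 to 1.173). For PPM1K the factors were 1.298 (0.962 to 1.753) against BCKDHA and 1.111 (0.818 to 1.510) against DBT. Only the first of these intervals excluded no change, so these values do not show a shift of the kinase against the complex as a whole.

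In the branches after the complex, MCCC2 was the member lower by more than 1.5-fold, and IVD was lower by less. MCCC2 (ENSG00000131844, chromosome 5 from 71587288 to 71658704), the beta subunit of 3-methylcrotonyl-CoA carboxylase in leucine breakdown, was the most abundant member per length, at 157 FPKM in control and 99.7 in Akt1/2 DKO. Its 4660 and 2911 reads gave a 1.77-fold lower level (95% interval 1.69 to 1.86), a log2 fold change of -0.83, and 1.58-fold in FPKM. MCCC1, which encodes the biotin-bearing alpha subunit of the same enzyme, had 1076 and 659 reads, 1.81-fold lower (95% interval 1.64 to 2.00). The ratio of MCCC1 to MCCC2 reads was multiplied by 0.980 (95% exact interval 0.879 to 1.09), so both subunits were lower by closely similar factors in reads. HLCS, the ligase that attaches biotin to such carboxylases, had 594 and 678 reads, a log2 fold change of 0.04 (95% interval -0.12 to 0.20).
IVD (ENSG00000128928, chromosome 15 from 40405795 to 40435947), isovaleryl-CoA dehydrogenase, which acts just before that carboxylase, had 1843 and 1659 reads, 1.23-fold lower (95% interval 1.15 to 1.32). MCCC2 was lower by more than IVD, since their ratio in reads was multiplied by 0.694 (95% exact interval 0.640 to 0.753). ACADSB (ENSG00000196177, chromosome 10 from 123008979 to 123058311), the short/branched-chain acyl-CoA dehydrogenase of isoleucine breakdown, had 356 and 458 reads, 1.16-fold higher with an interval from 1.01 to 1.34 that nearly reaches no change.

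Within each library the order of the members per length was the same, from MCCC2 through BCAT2, IVD, BCKDHA, BCKDK, BCKDHB, DBT, ACADSB and PPM1K to BCAT1. Counting intervals of neighbours in that order overlapped for BCKDHB with DBT and for DBT with ACADSB in both libraries, and for no other neighbours. BCAT1 stayed last in Akt1/2 DKO, where its 2.02 FPKM (95% interval 1.63 to 2.47) lay below the 4.51 of PPM1K (3.70 to 5.45).

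A further 38 genes of the pathway and its surroundings were listed by role, of which 35 had at least 10 reads in both libraries together. HMGCLL1, GLUD2 and PPARGC1A had 0 reads in both, and 0 reads, read as at most 3 counts of the library total, allow up to 0.301 CPM (counts scaled to library size) in control and 0.28 in Akt1/2 DKO. Of the 35, 13 passed 1.5-fold, 6 upward and 7 downward (37.1%, against 30.9% of all genes tested), and their median log2 fold change was -0.18. Of the 19 tested branch enzymes, with IVD, MCCC2 and ACADSB among them, 5 were lower by at least 1.5-fold, 0 higher and 14 within that range. That is 26.3% of the group in either direction, against 30.9% of all genes tested, of which 15.0% were lower and 15.9% higher. The median log2 fold change of the branch enzymes was -0.39, and 17 of 19 were below 0, as were 6567 of all 13318 genes.

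**Figure D3:**
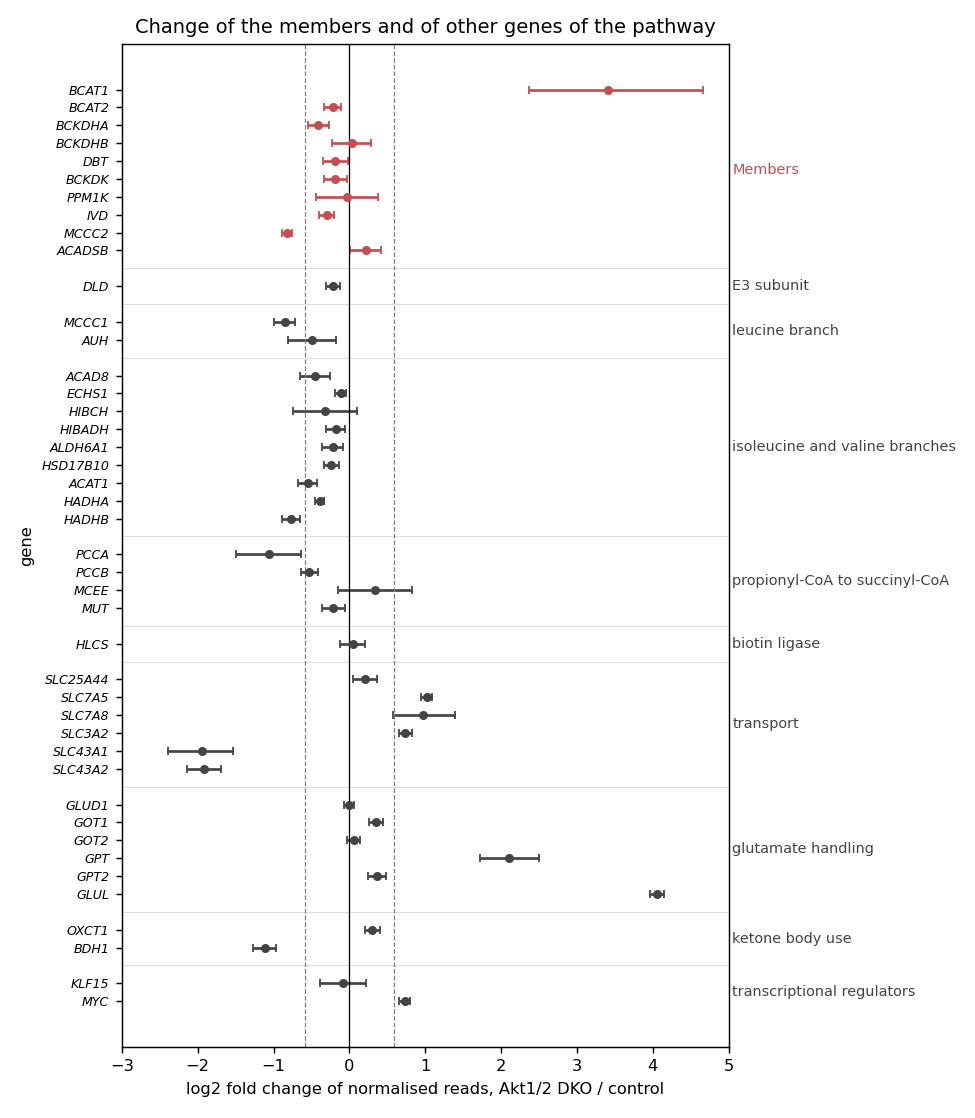
Log2 fold change of normalised reads, Akt1/2 DKO over control (x axis), for the 10 members (red) and 33 of the 35 tested genes of the pathway list (grey) grouped by role, with 95% exact intervals for counting error and dashed lines at 1.5-fold. BCAT1, GPT and GLUL lie far to the right, SLC43A1 and SLC43A2 to the left, and the branch enzymes mostly between 0 and the left dashed line.

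In the leucine branch, AUH, the hydratase that follows the carboxylase, had 195 and 154 reads, 1.40-fold lower (95% interval 1.13 to 1.75). IVD, MCCC2, MCCC1 and AUH were thus all on the lower side, with intervals that excluded no change. In the isoleucine and valine branches all 9 genes of the further list were below 0 on the log2 scale, from -0.12 for ECHS1 to -0.78 for HADHB. Among them HADHB alone passed 1.5-fold (1464 and 948 reads). The member ACADSB, also of isoleucine breakdown, went the other way, at 0.21 (95% interval 0.01 to 0.42). HADHB overlaps HADHA, its partner in the trifunctional protein of fatty acid oxidation, by 1557 bases on the opposite strand, and whether reads were counted by strand is not given in the sources used here. ACAT1, which splits the last isoleucine intermediate, had 1258 and 952 reads (1.47-fold lower, 1.35 to 1.60).

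In the shared last steps, propionyl-CoA carboxylase had lower reads of both subunits. PCCA, its alpha subunit, had 134 and 71 reads, 2.09-fold lower (95% interval 1.56 to 2.83), but in FPKM, at 5.42 and 4.61, the difference was 1.18-fold. Its implied length went from 2.48 to 1.44 kilobases, and 0.32% of genes had a difference at least as far in that direction, so the size for PCCA rests on the scale. PCCB, the beta subunit, had 1456 and 1120 reads (1.44-fold lower, 1.33 to 1.56). MCEE and MUT (now MMUT), which carry methylmalonyl-CoA to succinyl-CoA, had log2 fold changes of 0.33 (95% interval -0.15 to 0.82) and -0.21 (-0.36 to -0.06).
MCCC1, PCCB, PDHB, BDH1 and KLF15 all lie on chromosome 3, where the median over the 753 other tested genes was -0.54 on the log2 scale. PCCB, at -0.53, was level with the genes of its chromosome, while MCCC1 stood at -0.86. The 20 nearest tested genes had a median of -0.87 beside PCCB and -0.59 beside MCCC1. The part of the chromosome in these values was not tested. MCCC2 lies on chromosome 5, where the median of the other 620 tested genes was 0.03 and that of the 20 nearest was -0.11. Among those 20, 2 were as low as MCCC2 or lower, SMN2, which has the near-identical copy SMN1, and MAP1B.

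Transporters of these amino acids were split by kind. SLC7A5, which with SLC3A2 forms the exchanger LAT1, had 2129 and 4786 reads, 2.03-fold higher in Akt1/2 DKO (95% interval 1.93 to 2.13). SLC3A2 had 1599 and 2956 reads (1.67-fold, 1.57 to 1.77), and SLC7A8, the LAT2 exchanger, had 75 and 163 (1.96-fold, 1.48 to 2.61). The facilitative carriers lay on the other side. SLC43A1 (LAT3) had 209 and 60 reads, 3.86-fold lower (2.89 to 5.24), and SLC43A2 (LAT4) had 716 and 210, 3.78-fold lower (3.24 to 4.43). SLC25A44, the mitochondrial carrier of branched-chain amino acids, had 566 and 724 reads, 1.15-fold higher (1.03 to 1.29). The estimated reads of SLC7A5, PCCB, ALDH6A1 and GLUD1 were fractions in at least 1 library, and those of all 10 members were whole, so these 4 genes may share reads with other loci.

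The genes that handle glutamate, the product of the aminotransferases, held the largest difference of the lists. GLUL, which encodes glutamine synthetase, had 1153 reads in control and 21244 in Akt1/2 DKO, 16.6-fold higher (95% interval 15.7 to 17.6), and 27.5 and 474 FPKM. GPT, the cytosolic alanine aminotransferase, had 68 and 323 reads, 4.28-fold higher (3.29 to 5.65), and its mitochondrial counterpart GPT2 had 1033 and 1471 (1.28-fold, 1.18 to 1.39). GOT1, cytosolic aspartate aminotransferase, had 1561 and 2209 reads (log2 fold change 0.35, 95% interval 0.26 to 0.45), and the mitochondrial GOT2 had 2141 and 2470 reads (log2 fold change 0.06, 95% interval -0.03 to 0.14). GLUD1, which releases ammonia from glutamate, was near level at 3552 and 3908 reads (log2 fold change -0.01, 95% interval -0.08 to 0.05). Of the ketone body enzymes, BDH1 had 1066 and 545 reads (2.17-fold lower, 1.95 to 2.41) and OXCT1 1514 and 2071 (1.23-fold higher, 1.15 to 1.32). Of the regulators, KLF15, known to drive branched-chain amino acid catabolism in muscle, had 183 and 191 reads (log2 fold change -0.09, 95% interval -0.39 to 0.21), and MYC had 2556 and 4689 (1.65-fold higher, 1.58 to 1.74).

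Several genes beside BCAT1 on chromosome 12 also had more reads in Akt1/2 DKO. Of the 10 nearest tested genes on each side, 9 of 20 were at least 1.5-fold higher, against 15.9% of all genes tested. The median log2 fold change of the 20 was 0.44, against 0.04 over the other 710 tested genes of chromosome 12. Of the 9, 5 had fewer than 10 control reads and met the minimum of 10 reads only through the Akt1/2 DKO library. These values are a description and support nothing further, and the part of the region in the value of BCAT1 was not tested. Among the 14 neighbours with at least 10 control reads, 4 were higher by at least 1.5-fold and 0 lower. Among all 11973 genes with at least 10 reads in each library, 24.8% differed by that much in either direction. The share on the higher side alone was not computed for that filter. SOX5 had 5 and 41 reads, RASSF8 4 and 112, BHLHE41 1 and 43, ST8SIA1 2 and 144 and SPX 0 and 78. Those 5 were nearly silent in control. The 4 with more control reads were KCNJ8 (23 and 1177 reads, log2 fold change 5.53), CMAS (924 and 2814, 1.46), GOLT1B (187 and 352, 0.76) and LDHB (11314 and 19165, 0.61). Beside BCAT2, 10 of 20 neighbours differed by that much in either direction, and beside the other 8 members between 1 (DBT) and 9 (PPM1K) did. Among all genes tested 30.9% did.

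**Figure D4:**
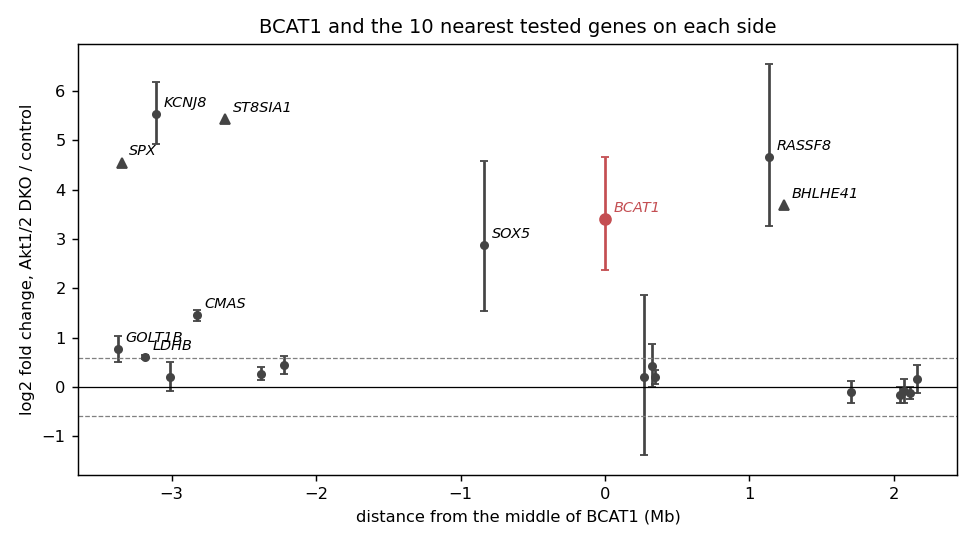
Log2 fold change, Akt1/2 DKO over control (y axis), of BCAT1 (red) and of the 10 nearest tested genes on each side, by distance from the middle of BCAT1. Bars are 95% exact intervals for counting error, triangles are lower bounds for genes with fewer than 3 control reads, computed against 3 reads, and dashed lines mark 1.5-fold, above which 9 named neighbours lie and below which (on the lower side) none do.

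The genes whose 2 values were most like those of BCAT1, by distance in log2 CPM over the 2 libraries, were DEGS2 (8 and 92 reads), STON2 (8 and 85) and MITF (9 and 96). With 2 libraries this says only that their reads were alike.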

How the data were processed

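RNA of cultured CWR22rv1 cells was sequenced as 1 control and 1 Akt1/2 DKO library. The submitters' processing notes name fastp 0.20.0, TopHat, Cufflinks, edgeR and GRCh38.p10 without roles, and the counting tool and strand setting are not given in the sources used here. The authors deposited estimated counts per gene, not normalised, and FPKM. Their tables of fold changes, p-values, changed genes and library correlation were not used. Estimated counts were rounded to whole reads. Ratios of Akt1/2 DKO to control were scaled by TMM (edgeR 4.0.16, R 4.3.3; library ratio 1.11) over 13318 genes with at least 10 reads in both libraries together. Intervals are 95% exact (Clopper-Pearson, or conditional for ratios of genes, scipy 1.17.1, Python 3.11.15) and cover counting error only. A library under 3 reads was set to 3. Some genes of the lists are counted but not reported here by name. No p-value is given, since each condition is 1 library. The steps were tested on simulated data with counting error only and few changed genes. That checks the computation and not how it fares on libraries that differ as widely as these. Positions are from GENCODE release 29 (19571 of 19607 identifiers matched). Genes named are the members, the listed pathway genes, the 3 genes nearest to BCAT1 in level, and chromosomal neighbours, the last chosen after their values were seen. The members and lists were chosen with earlier results of these data known. Alternatives were 3 scalings (total counts, DESeq2 1.42.0 size factors, upper quartile), the authors' FPKM, 3 read filters, a prior count of 1, a 2-fold threshold and an interval that excludes no change.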

Additional observations from a re-analysis of the deposited data

How the results depend on the processing

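Under the 3 other scalings, the authors' FPKM, a filter of any read or of at least 50 reads in both libraries together, and a prior count of 1, the number of members past 1.5-fold stayed at 2, with 1 on each side. A minimum of 10 reads in each library left 1 member different, with 0 higher, because BCAT1 has 8 control reads and was removed. A 2-fold threshold left 1 member, with 0 lower, 7 other pathway genes and 17.9% of all genes tested. Asking only that the interval exclude no change gave 8 members (2 higher, 6 lower), 28 other pathway genes and 59.2% of all genes. On the FPKM scale of the authors BCAT1 stood at 2.66 (log2), that of MCCC2 -0.66 and that of DBT 0.05, and the log2 change of the BCAT1 to BCAT2 ratio was 2.84, against 2.84 to 3.63 over all alternatives that gave one. By its definition, the implied transcript length accounts for the gap between FPKM and reads scaled by total counts. Why that length differed was not tested. Of 79 values of single members under the alternatives, 77 stayed within the counting interval, among them those of BCKDHB and PPM1K that changed sign near 0. The depth limits BCAT1 in control and PPM1K, with 99 and 107 reads, most. No paired analysis was possible because only 1 library stands for each condition.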

Other observations

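The pathway annotation in the deposited table puts 48 genes in valine, leucine and isoleucine degradation, among them 8 of the 10 members (not BCKDK and PPM1K). Of 46 with at least 10 reads in both libraries together, 15 passed 1.5-fold, 3 upward and 12 downward (32.6%, against 30.9% of all genes tested). Of the 20 that are in neither list of the report, 9 differed, 2 higher and 7 lower, and those named here were chosen after their values were seen. ABAT, 4-aminobutyrate aminotransferase, had 174 reads in control and 31 in Akt1/2 DKO, 6.22-fold lower (95% interval 4.23 to 9.44). AOX1, aldehyde oxidase, had 46 and 4 reads, 12.7-fold lower (4.66 to 48.8). ACAA1, the peroxisomal thiolase, which lies on chromosome 3, had 1203 and 600 (2.22-fold lower, 2.01 to 2.46), and ALDH7A1 had 795 and 521 (1.69-fold lower, 1.51 to 1.89).

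On the higher side, OXCT2, a paralog of OXCT1 known from testis, had 11 and 85 reads, 6.97-fold higher (95% interval 3.71 to 14.5). OXCT2 has a near-identical pseudogene copy, so its reads are uncertain. ACAT2, the cytosolic thiolase that feeds sterol synthesis, had 1074 and 2028 (1.70-fold higher, 1.58 to 1.84), while its mitochondrial counterpart ACAT1 was lower. HMGCS1, the cytosolic synthase, had 1628 and 2353 reads (1.30-fold higher, 1.22 to 1.39). IL4I1 and ACAA2, with 10 and 6 and with 30 and 19 reads, had intervals that included no change.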
